A study of Mus musculus with 4 samples.

Results

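Mast cell genes were followed in the colonic mucosa of C57BL/6 mice between postnatal day 30 (P30, juvenile) and postnatal day 90 (P90, young adult). The set held 10 genes: the chymases Mcpt1, Mcpt2, Mcpt4 and Cma1, the carboxypeptidase Cpa3, the tryptases Tpsb2 and Tpsab1, and the receptors Kit, Fcer1a and Ms4a2. Its probes were all array probes whose accession RefSeq pairs with 1 of these symbols, which gave 9 of 41174 gene probes, for 8 of the 10 genes, among 17305 genes with a named probe. No accession of the array was paired with Kit or Tpsab1, and these were not analysed here; RefSeq lists Tpsab1 as a transcribed pseudogene in the C57BL/6J assembly. Of the 8 genes, 5 (Mcpt1, Mcpt4, Cma1, Tpsb2 and Fcer1a; 6 probes) were bright enough to be tested, meaning well above background at one age on at least 3 arrays, and 3 (Mcpt2, Cpa3 and Ms4a2) were not.

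The samples were total RNA of mucosa sheared off with a glass slide, and each of 4 2-colour arrays carried 1 P90 RNA beside 1 P30 RNA; the arrays keep their labels a, b, e and k. Cy3 marked the P90 RNA on all arrays except e, where Cy5 did. No treatment or genotype separated the groups, and the sex of the animals and the number pooled per RNA were not given in the sources used here. Nothing in the labels ties the arrays to separate animals, so the spread behind a p-value here is that between the 4 arrays, which may be technical. The limma fit also draws the spread of each probe towards that of all probes tested. Values are log2 P90/P30, so a negative value is a lower signal in the older mice.

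Mast cells are tissue-resident cells that store proteases, histamine and proteoglycan in granules and release them when IgE bound to the high-affinity receptor is crosslinked. Mouse mast cells fall into a mucosal class, which sits in the epithelium and lamina propria of the gut and is known for the chymases Mcpt1 and Mcpt2, and a connective tissue class, which sits in submucosa, serosa and skin and is known for Mcpt4, Cma1 and Tpsb2. Mucosal mast cells are sparse in the healthy gut and expand in worm infection, when they release Mcpt1.

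The chymase genes lie side by side on chromosome 14, in the order Cma1, Cma2, Mcpt1, Mcpt2, Mcpt9, Mcpt4 and Mcpt8 with pseudogenes between them, followed by cathepsin G (Ctsg) and the granzymes (RefSeq, GRCm38.p6; names and order only, since the array design uses mm9). The 250 bases upstream of the start of 3 of them are shown because Mcpt1 and Mcpt4 had lower signals at P90 on every array and Cma1 did not. Capitals mark GATAA on either strand (GATAA or TTATC), a core of the sites that GATA factors bind.
Mcpt1: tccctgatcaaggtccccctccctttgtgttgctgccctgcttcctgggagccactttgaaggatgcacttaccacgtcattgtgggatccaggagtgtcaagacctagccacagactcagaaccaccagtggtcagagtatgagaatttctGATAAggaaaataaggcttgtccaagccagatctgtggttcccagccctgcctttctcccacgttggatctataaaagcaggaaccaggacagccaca
Mcpt4: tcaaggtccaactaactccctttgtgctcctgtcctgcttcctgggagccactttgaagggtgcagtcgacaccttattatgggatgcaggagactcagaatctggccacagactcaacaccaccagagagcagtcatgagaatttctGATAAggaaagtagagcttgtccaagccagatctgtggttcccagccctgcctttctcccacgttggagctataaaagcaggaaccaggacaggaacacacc
Cma1: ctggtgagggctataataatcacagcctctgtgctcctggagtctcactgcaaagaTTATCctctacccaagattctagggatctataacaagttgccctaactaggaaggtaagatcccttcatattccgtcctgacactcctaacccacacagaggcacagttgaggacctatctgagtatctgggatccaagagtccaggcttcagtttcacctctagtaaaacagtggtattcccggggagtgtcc
These windows are chr14:56017714-56017963 on the plus strand for Mcpt1, chr14:56062311-56062560 on the minus strand for Mcpt4 and chr14:55944676-55944925 on the minus strand for Cma1 (RefSeq, GRCm38.p6). In a global alignment Mcpt1 and Mcpt4 shared 207 of 250 bases (82.8%), whereas Mcpt1 and Cma1 shared 128 (51.2%) and Mcpt4 and Cma1 shared 136 (54.4%). The other pairs of members with a window ran from 38.8% (Kit and Ms4a2) to 53.2% (Cpa3 and Fcer1a). No window was at hand for Mcpt2, and those of Cma2, Mcpt8 and Mcpt9 were not aligned. Whether likeness of the windows goes with the ratios was not tested. Counting the base before the start as -1, the first base of GATAA was at -98 in Mcpt1 and at -102 in Mcpt4. In Cma1 the first base of TTATC, which is GATAA on the other strand, was at -194. GATAA was found in 22.6% of the 32851 RefSeq windows of this length. It also occurred once in the windows of Cpa3 and Fcer1a, and 3 times in that of Ms4a2, and was not found in that of Kit. The E-box letters CANNTG, found in 66.2% of all windows, were absent from those of Mcpt1 and Mcpt4 and occurred once in that of Cma1. A match is a description of the letters only.

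Mcpt1 and Mcpt4 had lower signals at P90 on all 4 arrays, with array b in its labelled direction. Mcpt1, the mucosal mast cell chymase that is shed into the blood during worm infection, had log2 P90/P30 values of -0.67, -0.81, -0.59 and -0.20 (arrays a, b, e, k). No array lay above 0, and array e, with the dyes exchanged, lay between the others. Mcpt4, the chymase of connective tissue mast cells closest in its activity to human chymase, was at -0.55, -0.94, -0.39 and -0.43 (same order). Array b gave the most negative value for both genes. The means were -0.57 ± 0.26 (SD, n = 4) for Mcpt1 and -0.58 ± 0.25 for Mcpt4. The difference between the 2 probes, Mcpt1 minus Mcpt4, was 0.010 ± 0.20 on average and changed sign between arrays.

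**Figure D1:**
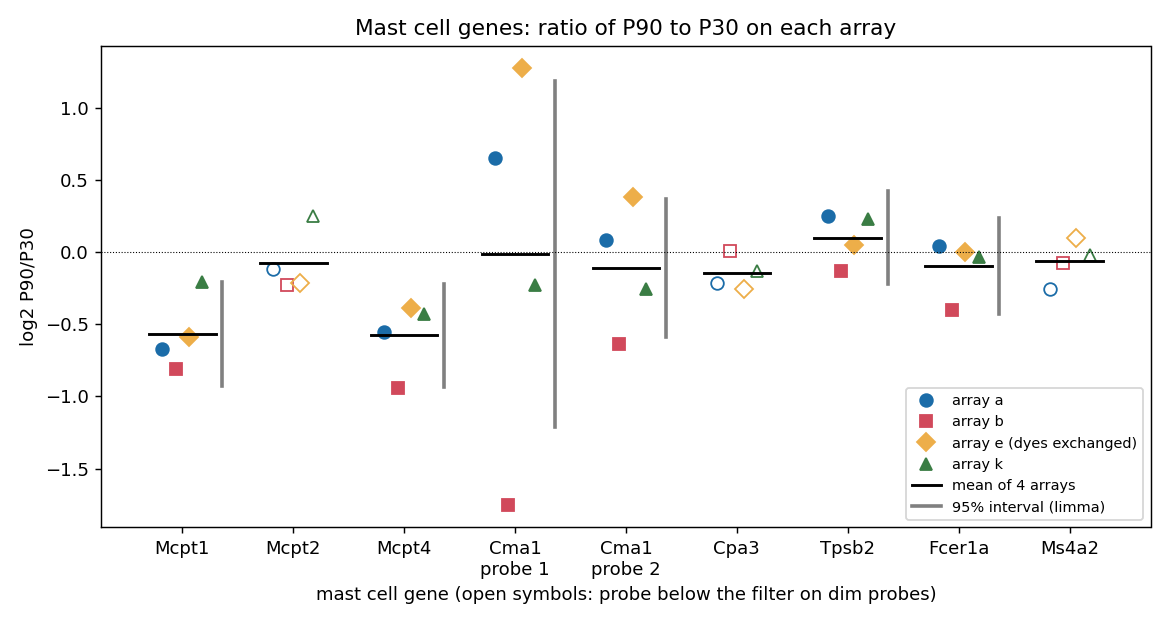
Log2 P90/P30 of each mast cell gene probe on arrays a, b, e and k, with the mean and, for the tested probes, limma's 95% interval; open symbols are probes too dim to test. Mcpt1 and Mcpt4 are below 0 on all 4 arrays, while the first Cma1 probe runs from -1.75 to 1.28.

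On a linear scale the P30 signal was 1.48-fold the P90 signal for Mcpt1 (95% interval from limma 1.15 to 1.90) and 1.49-fold for Mcpt4 (1.16 to 1.91). Neither passed the limma test after Benjamini-Hochberg adjustment over all 27065 probes tested (adjusted p = 0.584 for both), where by p Mcpt4 ranked 333 and Mcpt1 386. No probe of the array passed (0%; limma's adjusted p was 0.584 or more). Before adjustment, 1401 probes (5.18%) were lower and 778 (2.87%) higher at P90 at a p below 0.05. Log2 ratios below 0 on all 4 arrays were found for 2098 probes (7.75%) and above 0 on all 4 for 1777 (6.57%). Of the 5 tested mast cell genes, 2 were below 0 on all 4 arrays and none was above 0 on all 4. By their means 4 were below 0 and 1, Tpsb2, was above, where 54.4% of all tested probes were below 0 and 45.6% above.

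Both probes were measured at both ages: they were well above background in either channel on all 4 arrays, and none of the spots was saturated. The brightness of the Mcpt1 spot above its local background, before normalization, was 33 at P90 and 231.5 at P30 for array a, 36.5 and 74.5 for b, and 38.5 and 68 for k. On array e, where P90 carried Cy5, it was 23 at P90 and 80 at P30. For Mcpt4 it was 35 at P90 and 213 at P30 for array a, 25 and 69.5 for b, 41.5 and 92 for e, and 38.5 and 95.5 for k. The P30 spot was the brighter of the pair on every array for both genes, also where P30 carried Cy3. That order on array e was not particular to them. It was shared by Fcer1a (57 at P30 against 41 at P90) and Tpsb2 (27.5 against 17.5). The dim Mcpt2 (30 against 8), Cpa3 (27 against 4) and Ms4a2 (13 against 5) shared it too. Both Cma1 probes went the other way (139 against 331 and 48 against 58.5). The raw brightness of the 2 dyes is not on 1 scale, so no fold is read from it. After normalization, the log2 signal of Mcpt1 was 7.60 at P30 on array a and 6.89 to 6.99 on the other arrays, against 6.18 to 6.93 at P90. The P90 value of array a thus overlapped the P30 range, and the separation is within pairs.

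**Figure D2:**
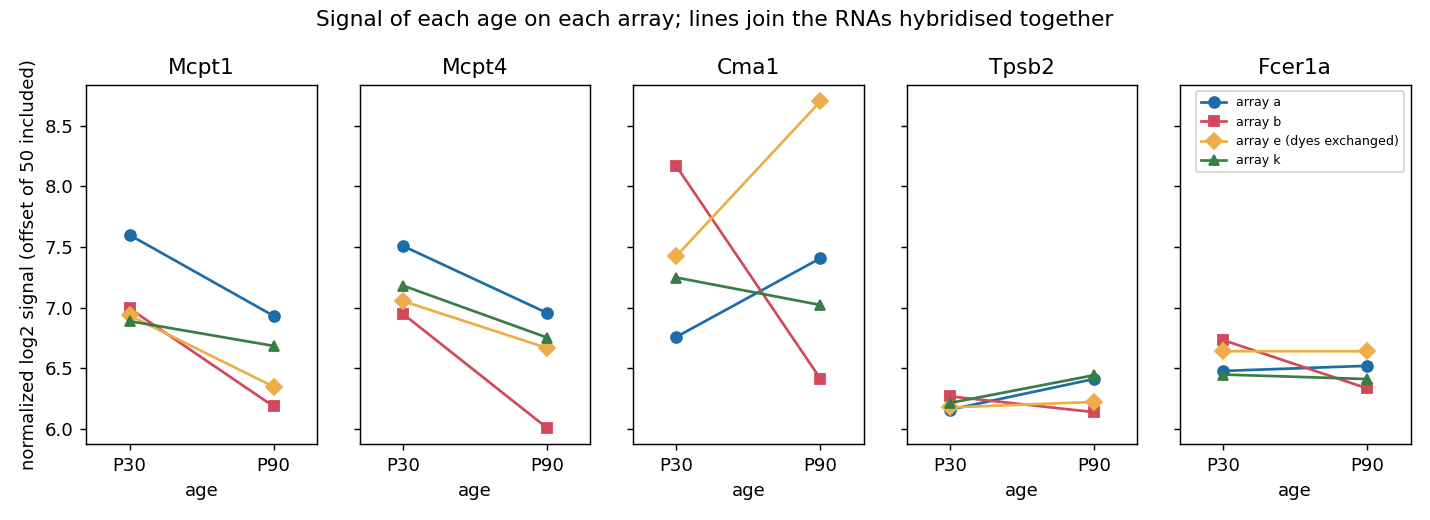
Normalized log2 signal at P30 and P90 for the 5 tested genes, with a line for each array joining the RNAs hybridised together. Every line falls for Mcpt1 and Mcpt4, lines cross for Cma1, and Tpsb2 and Fcer1a stay within 6.14 to 6.73.

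The size of the Mcpt1 and Mcpt4 difference depended on how background was treated. The values above carry an offset of 50, added to each channel before the logarithm, which by construction draws ratios of dim spots towards 0. With an offset of 10 the means were -0.92 for Mcpt1 and -0.94 for Mcpt4. With the scanner software's processed signals, followed by loess, they were -1.60 and -1.64. With the deposited log ratio they were -1.68 and -1.74, which is a P30 signal 3.20-fold and 3.34-fold that of P90. On that scale Mcpt1 was at -1.96, -2.05, -1.60 and -1.09 (arrays a, b, e, k) and Mcpt4 at -1.79, -2.86, -1.03 and -1.27. The means were below 0 in all 18 alternatives tried for each gene, and neither gene passed adjustment in any (limma adjusted p from 0.153 to 0.9998 for Mcpt1 and from 0.128 to 0.9998 for Mcpt4). Many of these alternatives could not give another sign. The changed filters, the saturated spots and the mean of a gene's probes left both means as they were. Leaving out or weighting arrays averages values already below 0, and the series' value table repeats the deposited log ratio for these genes.

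Mcpt2, the second mucosal chymase, which lies next to Mcpt1, was not well above background at P90 on any array and was so at P30 on arrays a and k only. Its log2 ratios, untested, were -0.12, -0.23, -0.21 and 0.25 (arrays a, b, e, k). Its mean log2 signal was 6.12 at P30 and 6.04 at P90, array k went against the others, and no fold is read from it. Chymase paralogs resemble each other in sequence, and the probe sequences were not used here, so a probe of Mcpt1, Mcpt2, Mcpt4 or Mcpt9 may bind transcripts of another, and the separate values of Mcpt1 and Mcpt4 are uncertain in that respect. This was not tested.

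Cma1, the connective tissue mast cell chymase also called Mcpt5, was split between the arrays. Its brighter probe had log2 P90/P30 values of 0.65, -1.75, 1.28 and -0.23 (arrays a, b, e, k), with a mean of -0.014 ± 1.31 (SD, n = 4) and a limma adjusted p of 0.997. Its second probe gave 0.083, -0.63, 0.38 and -0.26 on the same arrays, with the same sign as the first on each and a mean of -0.11 ± 0.44. The 95% interval of the first probe ran from -1.21 to 1.19, so the P30 signal lay anywhere between 0.44 and 2.32 times the P90 signal. Of the second probe, the P90 channel was well above background on array e only. Without array b the mean of Cma1 was 0.57, and without array e it was -0.44. The net brightness was highest for the P90 RNA of array e (331) and the P30 RNA of array b (256), each in Cy5, and lay between 51 and 139 in the other 6 RNAs.

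Mcpt4 and Cma1 are both counted as connective tissue chymases. On the log2 ratio scale, Mcpt4 minus Cma1 was -1.20, 0.81, -1.66 and -0.20 (arrays a, b, e, k). Averaged over the tested genes, the mucosal class (Mcpt1) minus the connective tissue class (Mcpt4, Cma1 and Tpsb2) was -0.78, 0.13, -0.90 and -0.063, with a mean of -0.40 ± 0.52 (SD, n = 4). It was -1.11 ± 0.93 with the processed signals and -1.10 ± 0.93 with the deposited log ratio, so whether the difference exceeded its spread depended on the processing. With the dim Mcpt2 added to the mucosal side and the dim Cpa3, which both classes hold, to the connective tissue side, it was -0.16 ± 0.39. These are descriptions with no test.

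Tpsb2, the tryptase also called Mcpt6 that is stored with heparin in connective tissue mast cells, had log2 ratios of 0.25, -0.13, 0.046 and 0.23 in array order (mean 0.099 ± 0.18, SD, n = 4; limma adjusted p = 0.876). It was above 0 on 3 arrays, and its 95% interval ran from -0.22 to 0.42. Cpa3, the mast cell carboxypeptidase found in both classes, was dim: well above background at P90 on array b only and at P30 on arrays a and k only, with ratios of -0.22, 0.0075, -0.25 and -0.13. With no filter on dim probes Cpa3 had a mean of -0.15 and an interval of -0.35 to 0.050.

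Of the receptors, Fcer1a, the IgE-binding alpha chain of the high-affinity receptor, was measured in either channel of every array and had log2 ratios of 0.042, -0.40, -0.00032 and -0.037 (arrays a, b, e, k). The values lay within 0.05 of 0 on all but array b, the mean was -0.098 ± 0.20 (SD, n = 4) and the limma adjusted p 0.886. The 95% interval, -0.43 to 0.23, bounds a change of Fcer1a at 1.35-fold lower at P90 under this processing, where the offset compresses dim signals. Ms4a2, the signal-amplifying beta chain of the same receptor, was not well above background in any RNA, and no ratio is read from it. The median over the 5 tested genes, 1 probe each, was -0.098, against -0.020 over all probes tested.

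The genes of the surrounding pathway were taken from 3 lists. Over all probes tested, 45.6% had a mean above 0, 6.57% were above 0 on all 4 arrays and 7.75% below 0 on all 4. These shares stand beside the counts of each list and locus below, and no list was tested against them. In the list of receptor signalling, 15 of 21 genes were tested. Of these, 10 had a mean above 0 and 5 below, 5 were above 0 and 3 below 0 on all 4 arrays, and none passed adjustment. The median was 0.13. The lowest was Il1rl1, the receptor for the alarmin IL-33 that mast cells carry at high levels, at -1.59, -0.59, -1.28 and -0.98 (arrays a, b, e, k), with a mean of -1.11 ± 0.43 (SD, n = 4; limma adjusted p = 0.584). It was well above background at P30 on all 4 arrays and at P90 on 2, so it passed the filter only through the age where it was high. No support is drawn from its place in the list. Its second probe gave -0.21. The Src-family kinase Lyn, the first kinase to act on the IgE receptor, was at -0.59 ± 0.37, with a second probe at -0.082. Vav1, a guanine nucleotide exchange factor, was at 0.40 ± 0.44, and the inhibitory phosphatase Ptpn6 at 0.37 ± 0.10 with a second probe at -0.035. Cd63, a granule membrane protein and the member of highest intensity, was at -0.16 ± 0.14.

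In the list of granule contents and mediator synthesis 21 of 22 genes were tested, with 14 means above 0 and 7 below, 3 above 0 on all 4 arrays, none below 0 on all 4, none past adjustment and a median of 0.11. Alox5, the 5-lipoxygenase of leukotriene synthesis, was at 0.66 ± 0.53 (SD, n = 4), with other probes at 0.67 and 0.31; tuft cells also express it. Rab27a, which docks granules at the membrane, was at 0.63 ± 0.74 with a second probe at 0.034, and Ndst2, which sulfates heparin in mast cell granules, at 0.30 ± 0.25. Serpinb1a, an inhibitor of chymotrypsin-like proteases and the member of highest intensity, was at 0.0012 ± 0.56, with a saturated channel on 2 arrays. The list of growth, homing and transcription factors had 22 of 28 genes tested, 11 with means above 0 and 11 below, 1 above 0 and 2 below 0 on all 4 arrays, none past adjustment and a median of -0.014. Cebpa, a transcription factor of myeloid and epithelial differentiation, was at 0.86 ± 0.21 with a second probe at 0.80. Mitf, which drives mast cell genes, was at -0.068 ± 0.062 and Fos, the brightest, at -0.050 ± 0.70. Il4, also below 0 on all 4 arrays, was at -0.043 ± 0.0098. It was dim, with a mean log2 intensity of 6.13, and well above background at P30 on 4 arrays but at P90 on 2. Il4 thus passed the filter only through P30. The offset draws ratios of such dim spots towards 0, so no consistent decrease is read from its small SD. Gata1 and Gata2, named after their values were seen because their factors bind the letters marked in the promoters, were at 0.019 ± 0.11 and 0.15 ± 0.43.

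Of 16 genes listed along the chymase locus, 15 had a probe and 7 were tested. Of the tested genes, 2 (Mcpt1 and Mcpt4, described above) were below 0 on all 4 arrays, beside 7.75% of all probes tested. None passed adjustment. Cma2 was at 0.031 ± 0.16 (SD, n = 4), Ctsg, a protease of neutrophils and mast cells, at 0.16 ± 0.34, Gzmc at -0.048 ± 0.059 and Gzmb, the granzyme of killer lymphocytes, at 0.19 ± 0.77, each with both signs among the arrays. Mcpt8, the basophil protease, and Mcpt9 were too dim to test. Along the tryptase locus of chromosome 17, 5 of 8 genes were tested and none had 1 sign on all 4 arrays: beside Tpsb2, Tpsg1 was at 0.037 ± 0.52, Prss34, a basophil protease, at 0.16 ± 0.42, Prss41 at 0.030 ± 0.63 and Prss29 at -0.046 ± 0.18.

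**Figure D3:**
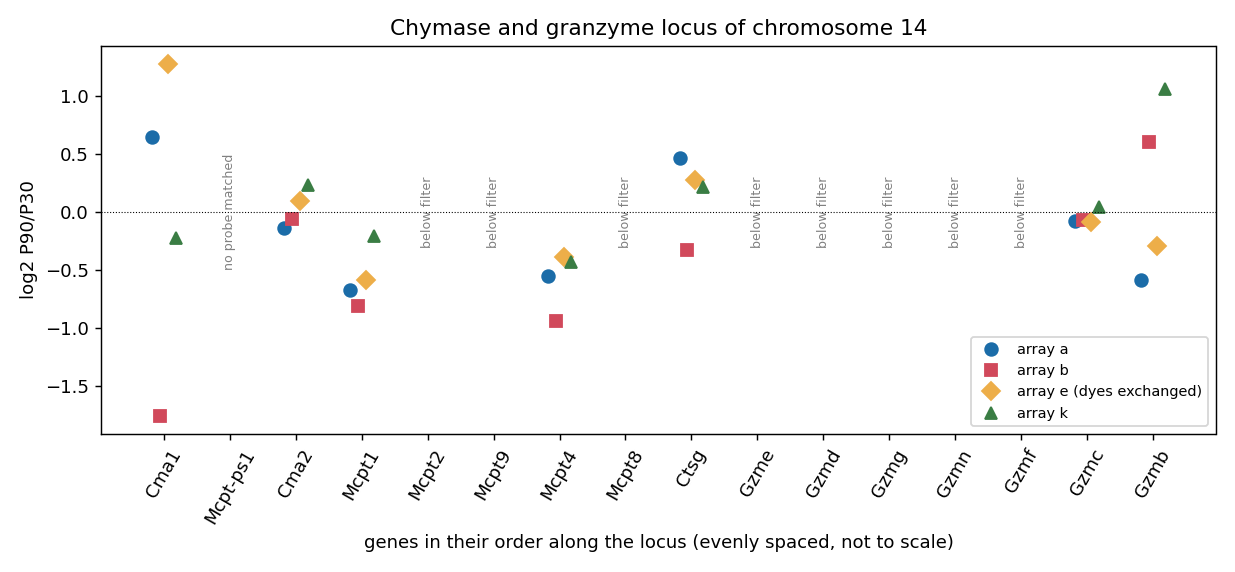
Log2 P90/P30 on each array for the genes of the chymase and granzyme locus, placed in their order along chromosome 14; genes too dim to test or with no matched probe are written in grey. Mcpt1 and Mcpt4 are the 2 tested genes with all arrays below 0.

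The arrays differed in other cell types, and these values stand beside those of the chymases. The colonic epithelium was present in every RNA (9 of 10 markers tested). Its medians were 0.45, 0.33, -0.16 and 0.013 (arrays a, b, e, k). Vil1, Krt8, Krt20, Car1 and Krt19 had a saturated channel on all 4 arrays, so these medians rest in part on saturated spots and are no measured reference. Fibroblast and matrix markers (10 of 10 tested) had medians of -3.40, 1.48, -1.82 and -2.55 (arrays a, b, e, k), and endothelial markers (8 of 8) -0.91, 0.95, -0.55 and -1.46. Mcpt1 and Mcpt4 had the same sign as both lists on arrays a, e and k and the opposite sign on array b only. Array b correlated negatively with the other arrays, and its labelled direction was kept. Without array b the means of Mcpt1 and Mcpt4 were -0.49 and -0.46. Cma1 had the opposite sign to the matrix list on arrays a, b and e and the same sign on k. The summed normalized matrix signal ran from 2724 to 33280 at P90 and from 11881 to 94830 at P30. Smooth muscle markers (9 of 10) had medians of 0.31, 0.85, 0.26 and -1.22, and adipocyte markers (7 of 8) 0.19, 2.04, 5.46 and 0.57, with summed signals of 6317 to 184197 at P90 and 3713 to 12597 at P30. The part of these cell types in the values of Mcpt1, Mcpt4 and Cma1 was not tested. In bulk tissue, fewer mast cells and less mRNA per mast cell cannot be told apart.

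Basophils and eosinophils share genes with mast cells. Basophil markers (4 of 6 tested; Mcpt8 and Cd200r3 not well above background often enough) had medians of 0.0086, 0.0012, 0.14 and 0.037, with summed signals of 655 to 1011 at P90 and 671 to 934 at P30. Eosinophil markers (3 of 7 tested, with Epx and Ear1 too dim) had medians of 0.077, 0.75, 0.30 and 0.054; among them Siglecf was above 0 on all 4 arrays, at 0.54 ± 0.18 (SD, n = 4; limma adjusted p = 0.584). T and NK cell markers (11 of 12) had medians of -0.19, 0.29, 0.21 and 0.89. Kit also marks interstitial cells of Cajal and deep crypt secretory cells of the colon. The first list (6 of 7 tested) had medians of 0.042, 0.037, -0.084 and -0.15 (arrays a, b, e, k). The second (6 of 6) had medians of 0.016, 0.16, 0.019 and -0.37, so only array k was below 0. The medians over the genes' means were 0.0028 for the first list and -0.35 for the second.

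**Figure D4:**
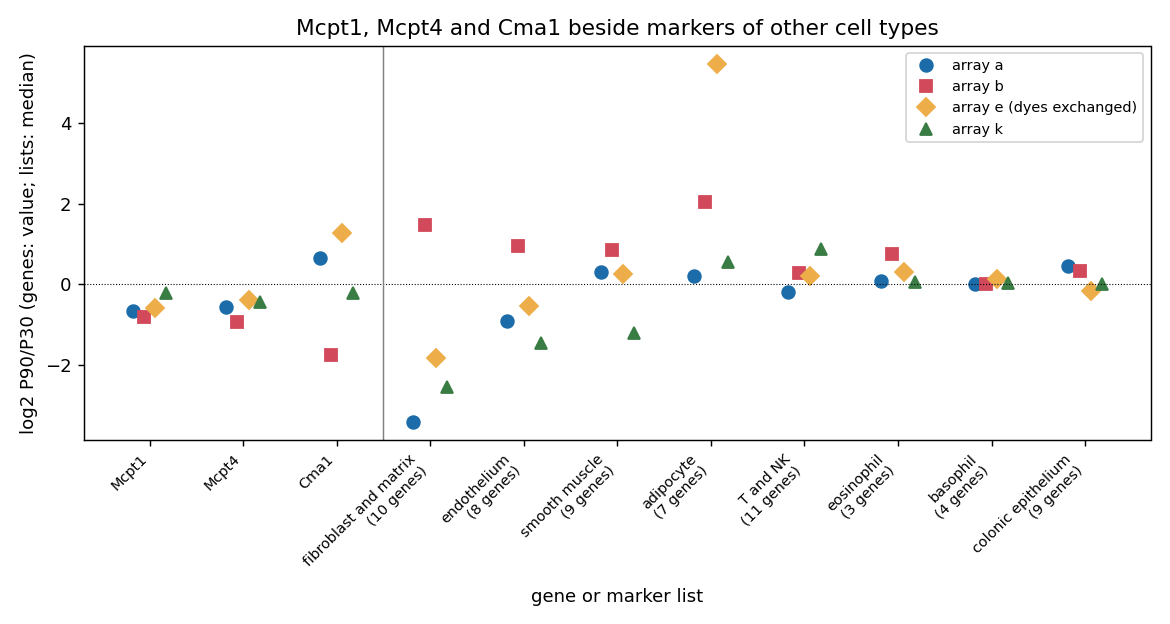
Log2 P90/P30 of Mcpt1, Mcpt4 and Cma1 on each array beside the median of marker lists of other cell types. The matrix list runs from -3.40 to 1.48 and the adipocyte list from 0.19 to 5.46, against -0.94 to -0.20 for Mcpt1 and Mcpt4. The epithelial medians rest in part on saturated spots.

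Over the tested probes, array b correlated at -0.31 with array a, -0.28 with e and -0.18 with k (Pearson r across probes, which are not independent; -0.303 with a over all probes), while a, e and k correlated at 0.32 to 0.60 with each other. The labels give array b the same dyes as a and k, and the labelled direction was kept. With array b turned, the means of Mcpt1 and Mcpt4 were -0.16 and -0.11 and that of Cma1 was 0.86 (limma adjusted p = 0.181). Array b then stood at 0.81 for Mcpt1 and 0.94 for Mcpt4, and each was below 0 on 3 of the 4 arrays. Their limma p-values before adjustment were then 0.557 and 0.706. That both genes were below 0 on all 4 arrays thus depends on the labelled direction of array b.

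**Figure D5:**
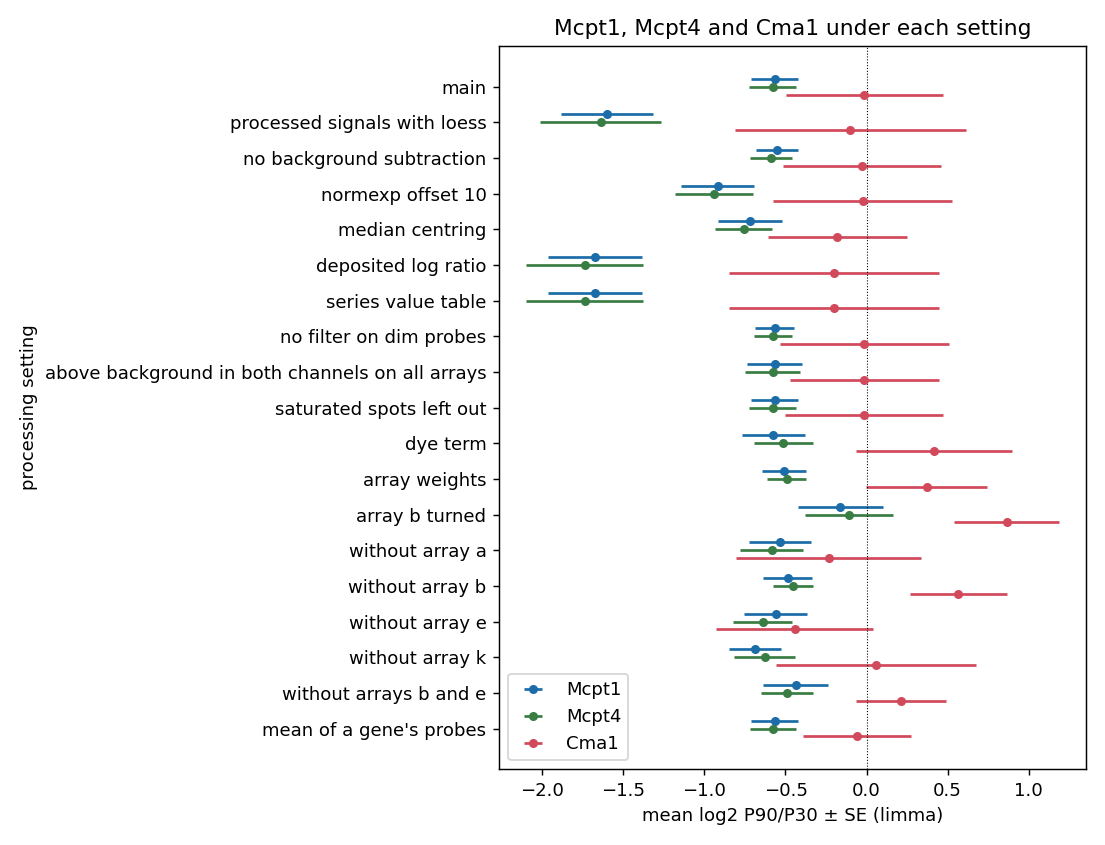
Mean log2 P90/P30 with limma's standard error for Mcpt1, Mcpt4 and Cma1 under the main processing and each alternative. The means of Mcpt1 and Mcpt4 stay below 0 in every setting, at -0.16 and -0.11 with array b turned, while that of Cma1 runs from -0.44 to 0.86. Many settings reuse the same ratios and could not change the sign for Mcpt1 or Mcpt4.

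The mean pattern of Mcpt1 and Mcpt2 over the 4 arrays was -0.39, -0.52, -0.40 and 0.023, and rests in part on Mcpt2 signals at background, so it is not that of a measured chymase. The probes nearest to it, by root mean square difference over the 4 arrays, were those of Ostc (0.049), Zbtb12 (0.050), Psmc3ip (0.058), Pstk (0.059) and Czib (0.060).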

How the data were processed

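The authors deposited scanner files with the median intensity of each spot and of its local background per channel on a linear scale, with no normalization per the file headers. The deposited processed signals were background-subtracted and scaled by 1 factor per dye; from them comes the deposited ratio of Cy5 to Cy3, in log10, per the file headers. The software was Agilent Feature Extraction 10.5.1.1 per the file headers and 8.5.1.1 per the submitters' processing notes. The series' deposited value table held log2 P90/P30: it matched the deposited log ratio, turned to log2 P90/P30, within 0.01 for 80.0% to 87.0% of probes per array, with column medians of 0.21 (a), -0.17 (b), 0.049 (e) and 0.17 (k); how its other values were made is unknown. The deposited background, saturation and outlier marks (other) were used as given. Median signals were used, for lack of a column of mean signals. All 4 arrays were on 1 slide with 1 scan, so no batch could be compared. Between 55.6% and 71.0% of gene spots per channel were well above background; 127 to 156 outlier spots per array were left out.

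Background was corrected with normexp (offset 50), followed by loess (span 0.3), in limma 3.58.1 under R 4.3.3. Of 41174 gene probes, 27065 (65.7%) were well above background at either age on at least 3 arrays and were fitted with lmFit and eBayes against 0, with Benjamini-Hochberg adjustment at 0.05. Signals per age were taken after Aquantile. In lists, the tested probe of highest intensity stood for its gene. Probes were named through RefSeq accessions of GRCm38.p6 (25097 probes). The fit was tested on simulated data. Alternatives changed the background correction, the normalization, the filter, the treatment of saturated spots and of a gene's probes, the dye and array weights, the direction of array b and the arrays included. The members and lists were chosen with earlier results of these data known. All probes of the members are named; from the pathway lists, up to 4 genes with 1 sign on all arrays and the brightest; from the locus lists, the tested genes; and the 5 probes of most similar pattern. The number of arrays limits the precision.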

Additional observations from a re-analysis of the deposited data

Results flagged for a closer look

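The normalized log2 signal of Mcpt1 at P30 stood apart on array a, at 7.60 against 6.89 to 6.99 on the other arrays (Dixon's test at the 95% level, in 1 of 27 groups of 4 values checked; chance flags about 1 in 20). The P90 signal of Mcpt1 was also highest on array a, at 6.93, and the ratio of that array, -0.67, lay within the range of the others.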

How the results depend on the processing

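The means of Mcpt1 and Mcpt4 stayed below 0 and that of Tpsb2 above 0 in all alternatives run for them (18, 18 and 17). For Mcpt1 and Mcpt4 many of these could not give another sign, since they reuse ratios already below 0. No mast cell gene passed adjustment in any. Over the whole array, 3 probes passed limma's adjusted test in place of 0 with processed signals, with an offset of 10, with the deposited log ratio and with the value table, and 0 otherwise; leaving out each array in turn also gave 0 to 0. Mucosal minus connective tissue chymases was -1.11 ± 0.93 (SD) with processed signals. It was -1.10 ± 0.93 with the deposited log ratio and with the value table. These settings add no offset. With no background subtraction, which adds no offset either, it was -0.38 ± 0.51. The dye-term and array-weight fits give it no value. It ran from -0.58 to -0.24 with 1 array left out. The sign of Cma1 turned with a dye term (0.42), array weights (0.37), array b turned (0.86) and, in an alternative added after seeing the data, without arrays b and e (0.21), and ran from -0.44 to 0.57 with 1 array left out. That of Fcer1a turned with array b turned (0.10) and without arrays b and e (0.0026), and ran from -0.15 to 0.0016 with 1 array left out. The median of the tested genes ran from -0.44 to 0.0016 with 1 array left out. The other causes were not tested. The test was already paired, since each array holds a P90 and a P30 RNA and their ratio was tested against 0. No further pairing was possible because the labels give 1 group of ratios. Depth is limited by signal over background: Mcpt2, Cpa3 and Ms4a2 could not be tested, and Tpsb2 gives no value where both channels must be above background on all arrays.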
